A study of Mus musculus with 16 samples.

Results

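The genes described here were the 4 mouse Fc gamma receptors Fcgr1, Fcgr3, Fcgr4 and Fcgr2b and the signalling chain Fcer1g. They were found by symbol in the count table and are 5 of its 37310 genes. All 5 were detected in every library and passed the filter on low counts in every fit. F4/80+ adipose tissue macrophages (ATMs) came from the epididymal fat of male wild-type (WT) mice and of mice labelled IRF5-KO, in which Cre inserted in the Lyz2 locus (LysM-Cre) deletes floxed Irf5, a transcription factor of the interferon regulatory family, in myeloid cells. Each genotype was studied after 4 weeks (ST-HFD) and after 12 weeks (LT-HFD) of a high-fat diet, with 4 libraries in each of the 4 groups and 1 mouse per library. All groups received the high-fat diet, so the libraries hold no group on normal chow, and diet duration and the age of the mice cannot be told apart. Whether the WT mice carried floxed Irf5 alleles is not given in the sources used here.

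Fc gamma receptors bind the constant part of IgG and let macrophages take up antibody-coated particles and immune complexes. The activating receptors Fcgr1, Fcgr3 and Fcgr4 pair with the product of Fcer1g, whose immunoreceptor tyrosine-based activation motif (ITAM) recruits the kinase Syk. Fcgr2b carries an inhibitory motif (ITIM) in its own tail, recruits the phosphatase encoded by Inpp5d and restrains the activating receptors bound to the same complex.

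Sequencing depth split by duration without overlap. Each ST-HFD library held between 3860469 and 4958131 counts, with 4533 to 6014 of them from the 5 genes. The LT-HFD libraries were smaller, at 3279332 to 3792898 counts, and 3113 to 4072 of these came from the 5 genes. Beyond scaling to library size, the part of depth in the changes between durations was not tested. The 12 macrophage markers were present in every group, with summed levels from 9389 to 16366 CPM (counts scaled to library size, with the TMM factors of edgeR). Markers of natural killer cells summed to at most 4.94 CPM and those of neutrophils to at most 4.34 CPM. For Irf5, the targeted gene, ST-HFD levels were 203 to 252 CPM in WT libraries against 250.4 to 274 CPM in IRF5-KO libraries, and LT-HFD levels were 170.5 to 213 CPM against 206 to 253 CPM. The label IRF5-KO thus went with no drop in Irf5 counts, and whether a gene total would show the deletion was not tested. Every genotype direction below rests on the labels. So does every direction between durations: Irf5 was lower in the libraries labelled LT-HFD than in those labelled ST-HFD, with a log2 fold change of -0.24 averaged over genotypes (SE 0.07, adjusted p = 0.0139, edgeR), whereas a published plot of Irf5, compared by eye, draws the higher values as LT-HFD. Were the labels of the durations exchanged, the sign of each change between durations would turn. Lyz2, the locus of the Cre insertion, had a log2 fold change between genotypes of -0.97 at the shorter duration (adjusted p = 0.106) and of -1.04 at the longer one (adjusted p = 0.0484) by the quasi-likelihood test of edgeR, which gave every adjusted p below unless another tool is named.

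In the GRCm38 genome Fcgr1 lies apart from the other members. Fcgr1 (ENSMUSG00000015947) occupies chr3:96282909-96293969 on the minus strand. The others stand within a short stretch of chromosome 1, with Fcgr2b (ENSMUSG00000026656) at chr1:170958617-170976547, Fcgr4 (ENSMUSG00000059089) at chr1:171018920-171029761, Fcgr3 (ENSMUSG00000059498) at chr1:171051174-171064935 and Fcer1g (ENSMUSG00000058715) at chr1:171229572-171234365. All are on the minus strand except Fcgr4.

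Fcgr2b and Fcgr3 share coding sequence for their extracellular part, which bears on how reads can be assigned. The longest identical run between their coding transcripts, printed here in lower case on the minus strand, is 129 bases long, all of it coding, and spans 2 exons from exon 3 of each gene (chr1:170966674-170968081 in Fcgr2b and chr1:171054167-171057792 in Fcgr3, introns included).
Shared run of Fcgr2b and Fcgr3: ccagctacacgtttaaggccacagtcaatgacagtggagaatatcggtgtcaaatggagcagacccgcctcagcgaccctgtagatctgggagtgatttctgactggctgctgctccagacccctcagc
Of all stretches of 100 bases in the transcripts of Fcgr3, 44 of 1733, or 2.54%, also occur in Fcgr2b, and 251 of 5843 stretches of Fcgr2b, or 4.30%, occur in some other gene. Fcgr1, Fcgr4 and Fcer1g share none. Fcgr2b overlaps the antisense gene Gm38204, and the strand setting of the counting is not given in the sources used here. Reads of that gene and of Fcgr2b may therefore not have been separated. Fcgr4 contains the small nuclear RNA gene Gm26110 and Fcgr3 the microRNA gene Mir6546, both on the strand of their host, and how reads in these stretches were assigned is not given either.

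The sequences just upstream of the RefSeq start sites are shown because Fcgr1 and Fcgr4 moved together across libraries and Fcgr2b moved the other way, so that a reader can compare their letters. Each promoter is the 250 bases before the start (RefSeq, GRCm38.p6) on the strand of the gene, and capitals mark matches to GAGGAA (the core bound by PU.1-type factors), TTCNNNGAA (a gamma-interferon-activated site, GAS), GAAA and GAAA spaced by 2 bases (an interferon-stimulated response element, ISRE) or GGAA and GAAA spaced by 2 bases (an ETS-IRF composite site), searched on both strands.
Fcgr1 promoter, chr3:96293970-96294219: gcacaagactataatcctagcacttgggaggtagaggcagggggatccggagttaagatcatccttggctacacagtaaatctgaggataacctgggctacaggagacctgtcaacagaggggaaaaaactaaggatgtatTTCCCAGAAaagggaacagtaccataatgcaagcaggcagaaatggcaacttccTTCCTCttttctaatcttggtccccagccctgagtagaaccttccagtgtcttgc
Fcgr3 promoter, chr1:171059395-171059644: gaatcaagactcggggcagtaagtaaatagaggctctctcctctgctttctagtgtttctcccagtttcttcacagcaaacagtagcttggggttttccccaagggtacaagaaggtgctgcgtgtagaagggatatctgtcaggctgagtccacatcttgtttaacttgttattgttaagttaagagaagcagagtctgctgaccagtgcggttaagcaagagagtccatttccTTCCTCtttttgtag
Fcgr4 promoter, chr1:171018676-171018925: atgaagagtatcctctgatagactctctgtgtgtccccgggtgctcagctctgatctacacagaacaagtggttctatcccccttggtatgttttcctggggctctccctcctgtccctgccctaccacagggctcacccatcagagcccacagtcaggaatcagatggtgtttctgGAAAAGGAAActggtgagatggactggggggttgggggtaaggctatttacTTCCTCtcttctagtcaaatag
Fcgr2b promoter, chr1:170976072-170976321: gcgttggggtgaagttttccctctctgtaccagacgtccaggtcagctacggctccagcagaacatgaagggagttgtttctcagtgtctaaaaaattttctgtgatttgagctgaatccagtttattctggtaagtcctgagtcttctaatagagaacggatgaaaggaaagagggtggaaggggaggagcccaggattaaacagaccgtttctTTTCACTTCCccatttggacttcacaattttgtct
GAGGAA occurred on the opposite strand in the promoters of the 3 activating receptors, 55 bases upstream of the start in Fcgr1, 15 in Fcgr3 and 22 in Fcgr4. Another RefSeq start of Fcgr3, whose window is not printed, put the same match at 6 bases. The Fcgr3 and Fcgr2b windows lie inside the gene spans given above, whose outer ends are further upstream. Fcgr1 also held TTCNNNGAA at 109 bases upstream and Fcgr4 held the ISRE letters at 73. Fcgr2b held the ETS-IRF letters on the opposite strand at 35 bases upstream and no GAGGAA, and the Fcer1g window held none of the 4 motifs. Among 32851 promoters of the same length, GAGGAA occurred in 23.3%, TTCNNNGAA in 7.02%, the ISRE letters in 2.98% and the ETS-IRF letters in 2.3%, so that GAGGAA by itself is common. A match is a run of letters, not a measured binding site.

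Fcgr3 and Fcer1g stood far above the other members when levels were set per exon length. Over the 16 libraries, Fcgr3 had a mean of 297 CPM per kilobase of exon (SD 24.8) and Fcer1g of 256 (SD 24.0). Fcgr2b followed with 48.3 (SD 17.7), Fcgr1 with 25.7 (SD 4.89) and Fcgr4 with 17.0 (SD 5.68). Fcgr3 was above Fcer1g, and Fcgr4 lowest, in 16 of 16 libraries. Fcgr2b was above Fcgr1 in 13 libraries, and the 3 libraries with the reverse order were all IRF5-KO on LT-HFD. With the length of the longest coding transcript in place of all exons, a choice made after seeing the data, Fcgr2b was above Fcgr1 in all 16, so the order of this neighbouring pair depends on the length used. Fcgr3 made up 82.8% to 93.2% of the summed level per kilobase of the 3 activating receptors in each library.

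The members differed in how steady they were. The coefficient of variation over the 16 libraries was 8.36% for Fcgr3 and 9.37% for Fcer1g, against 19.0% for Fcgr1, 33.5% for Fcgr4 and 36.7% for Fcgr2b. Fcgr4 rested on 25 to 138 counts per library, against 487 to 2041 for Fcgr2b and 1512 to 2705 for Fcgr3.

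**Figure D1:**
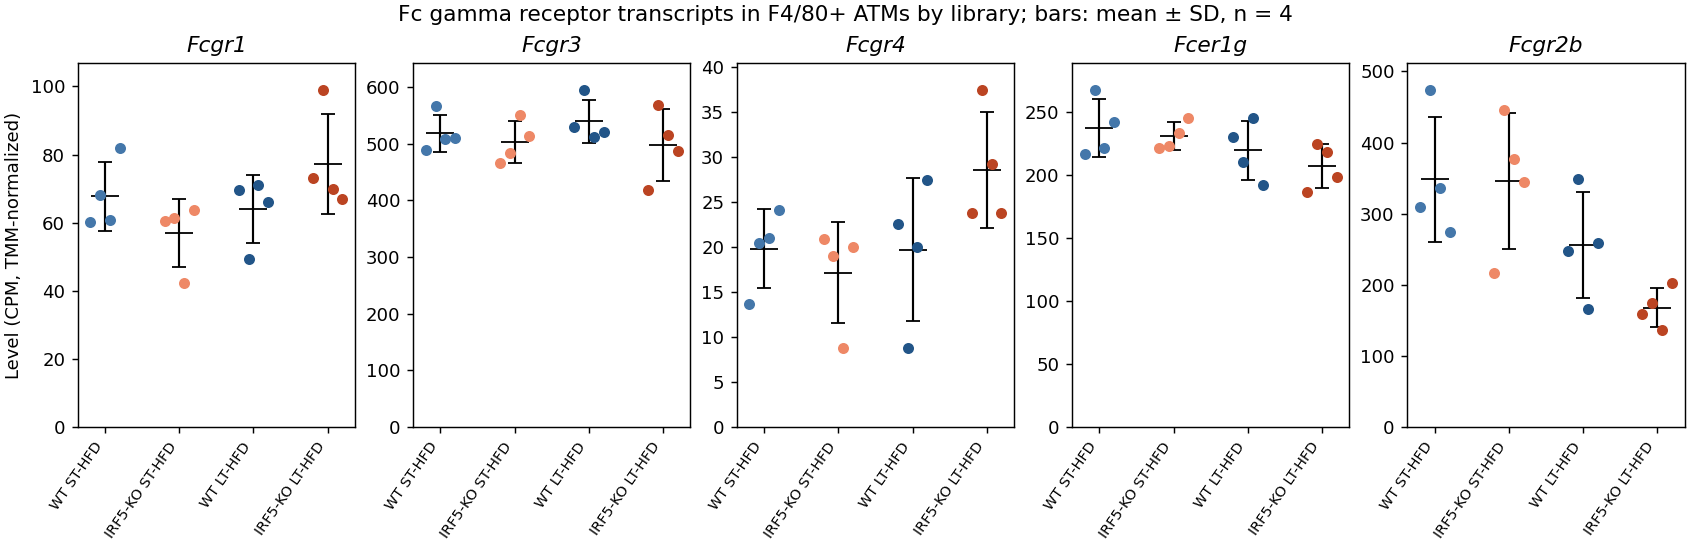
Levels of the 5 genes in CPM (y axis, from 0) in each of the 16 libraries (points) of the 4 groups (x axis), with the mean ± SD of 4 libraries (black). Fcgr3 and Fcer1g lie in narrow bands, while Fcgr2b is at 137 to 202 CPM in the IRF5-KO LT-HFD libraries and at 217 to 446 CPM in the IRF5-KO ST-HFD libraries.

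Fcgr1, the high-affinity IgG receptor, was higher on LT-HFD than on ST-HFD in the libraries labelled IRF5-KO. ST-HFD libraries had 60.1, 68.3, 60.7 and 81.8 CPM in the WT libraries and 60.6, 61.5, 42.3 and 63.8 CPM in the IRF5-KO libraries. LT-HFD libraries had 69.5, 49.3, 70.9 and 66.1 CPM in WT and 73.3, 98.9, 69.9 and 67.0 CPM in IRF5-KO. The genotypes overlapped at both durations, and the IRF5-KO libraries of LT-HFD all lay above those of ST-HFD, whose lowest value came from replicate 3. Between durations the log2 fold change in IRF5-KO was 0.44 (SE 0.16, adjusted p = 0.0445 with edgeR), or 35.7%, from a mean of 57.0 ± 9.92 to 77.3 ± 14.7 CPM (SD, n = 4). This call depended on the setting, with an adjusted p of 0.0541 by DESeq2's Wald test, and was lost on leaving out 10 of the 16 libraries in turn. Without IRF5-KO LT-HFD replicate 2 it was 0.30 (adjusted p = 0.178) and without IRF5-KO ST-HFD replicate 3 it was 0.32 (adjusted p = 0.151, edgeR). The other 8 fits gave an adjusted p of at most 0.0655 and left out WT ST-HFD replicates 1, 2 and 3, WT LT-HFD replicate 1, IRF5-KO ST-HFD replicates 1 and 2, or IRF5-KO LT-HFD replicates 1 and 3. In WT the log2 fold change was -0.08 (SE 0.16, adjusted p = 0.758).

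Fcgr3, the most abundant activating receptor and one of low affinity that binds complexed IgG, stayed within a narrow range in every group with TMM scaling. Its ST-HFD levels were 489, 567, 508 and 509.8 CPM in WT and 466, 484, 551 and 513 CPM in IRF5-KO. Its LT-HFD levels were 529, 595, 513 and 522 CPM in WT and 418, 569, 516 and 488 CPM in IRF5-KO. The groups overlapped in every comparison, and the lowest and the highest library differed by a factor of 1.42. The log2 fold change between durations, averaged over genotypes, was 0.02 with a 95% interval from -0.13 to 0.17 (adjusted p = 0.837, edgeR). Between genotypes it was -0.05 (interval -0.25 to 0.16) on ST-HFD and -0.12 (interval -0.39 to 0.15) on LT-HFD.

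Fcgr4, a receptor for mouse IgG2a and IgG2b, was the least abundant member and followed Fcgr1. The values on ST-HFD were 13.7, 20.4, 21.0 and 24.1 CPM in WT and 20.9, 19.0, 8.78 and 19.9 CPM in IRF5-KO. The values on LT-HFD were 22.5, 8.73, 20.03 and 27.5 CPM in WT and 23.8, 37.4, 29.2 and 23.8 CPM in IRF5-KO. The IRF5-KO libraries of LT-HFD were all above those of ST-HFD, and 1 library in each of IRF5-KO ST-HFD and WT LT-HFD lay far below the rest of its group. Between durations the log2 fold change in IRF5-KO was 0.74 (SE 0.29, adjusted p = 0.0642), which missed the threshold, and in WT it was 0.01 (SE 0.30, adjusted p = 0.989, edgeR). Without WT LT-HFD replicate 2, the low library of that group, the adjusted p in IRF5-KO was 0.0298, since the spread is shared by all groups in this fit. The fit over the 8 IRF5-KO libraries alone gave 0.74 with an adjusted p of 0.0462 by edgeR.

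Fcer1g, the chain that the activating receptors need at the cell surface, was nearly level across groups with TMM scaling. On ST-HFD it was at 217, 267, 221 and 242 CPM in WT and 222, 223, 233 and 245 CPM in IRF5-KO. On LT-HFD it was at 230.1, 210.3, 245 and 192 CPM in WT and 186, 224, 218 and 199 CPM in IRF5-KO. Every pair of groups overlapped. Averaged over genotypes, the log2 fold change between durations was -0.13 with a 95% interval from -0.28 to 0.02 (adjusted p = 0.137, edgeR). The ratio of Fcer1g to the 3 activating receptors per kilobase had means of 0.795 ± 0.0285 in WT and 0.811 ± 0.0229 in IRF5-KO on ST-HFD, and 0.716 ± 0.0914 and 0.701 ± 0.0395 on LT-HFD (SD, n = 4).

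Fcgr2b, the inhibitory receptor, was lower on LT-HFD than on ST-HFD. ST-HFD libraries had 309, 474, 336 and 274 CPM in WT and 217, 446, 377 and 344 CPM in IRF5-KO. LT-HFD libraries had 248, 349, 166 and 259 CPM in WT and 159, 174, 137 and 202 CPM in IRF5-KO. All 4 IRF5-KO libraries of LT-HFD lay below all 4 of ST-HFD, whereas the WT libraries of both durations overlapped. Averaged over genotypes, Fcgr2b fell by 0.74 on the log2 scale between ST-HFD and LT-HFD with TMM scaling (SE 0.16, adjusted p = 0.00121), and it fell by 1.04 in IRF5-KO (SE 0.23, adjusted p = 0.00227, edgeR). With libraries scaled to macrophage markers, as described below, these falls were smaller, at -0.35 and -0.53, and both were still called. In IRF5-KO the fitted level fell by 51.4%, and the means were 346 ± 95.9 and 168 ± 27.3 CPM (SD, n = 4). In WT the log2 fold change was -0.45 (SE 0.23, adjusted p = 0.171, edgeR), from 348 ± 87.4 to 256 ± 74.6 CPM. That value was -0.27 without WT ST-HFD replicate 2 and -0.29 without WT LT-HFD replicate 3, and -0.63 without WT LT-HFD replicate 2, with adjusted p of 0.463, 0.389 and 0.0612 (edgeR). With each library left out in turn, the value in IRF5-KO stayed between -1.21 and -0.90, with adjusted p from 0.000451 to 0.0111 (edgeR).

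**Figure D2:**
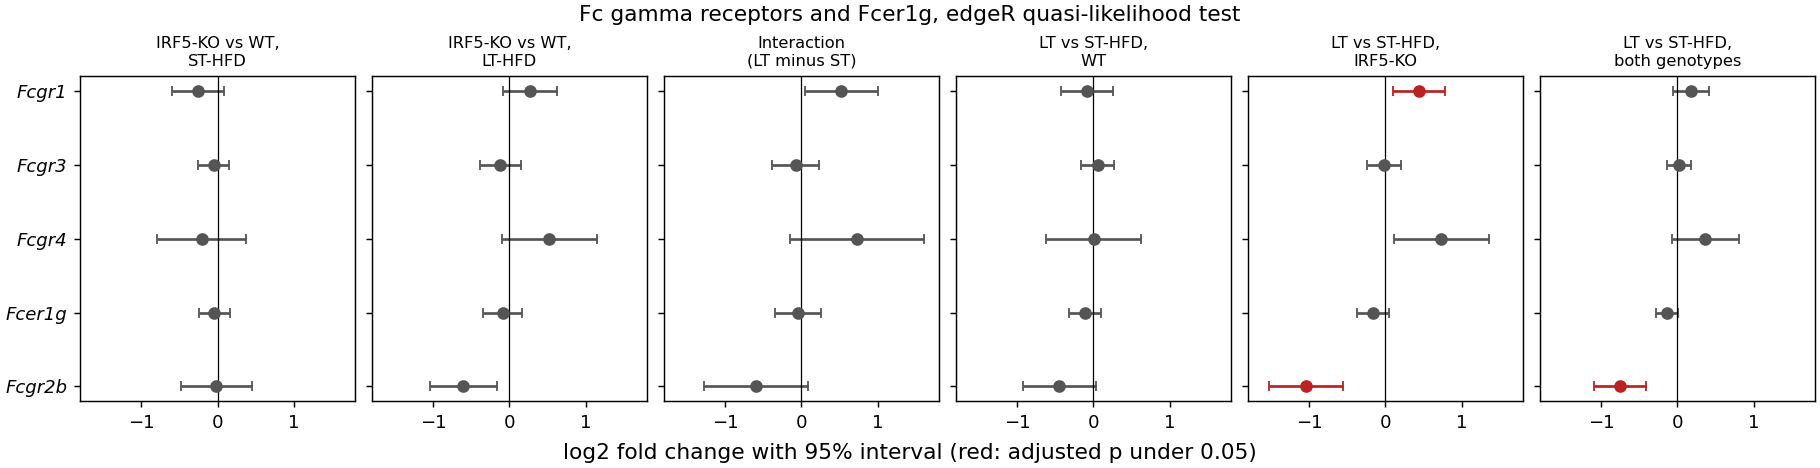
Log2 fold change (x axis) with its 95% interval for each of the 5 genes (y axis) in 6 comparisons (panels), from edgeR, with adjusted p under 0.05 in red. The 3 red points are Fcgr1 (0.44) and Fcgr2b (-1.04) between durations in IRF5-KO and Fcgr2b (-0.74) between durations over both genotypes.

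These calls stand against a wide background, because many genes differed between durations. Between ST-HFD and LT-HFD, 25.3% of the 11560 genes tested had an adjusted p under 0.05 in WT, 32.8% in IRF5-KO and 43.6% averaged over genotypes, whereas 0, 2 and 1 of the 5 members did. The groups did not overlap for 3 of the 5 members in IRF5-KO, against 29.4% of all genes, and for 0 of 5 in WT, against 26.1%. Markers of other cells moved with duration: the 7 fibroblast markers summed to 659 to 1613 CPM on ST-HFD and 3024 to 8769 CPM on LT-HFD, and the 8 mast cell markers to 1.70 to 4.41 CPM and 8.04 to 27.4 CPM, with Ms4a2 at 0 in 3 of the 4 groups. The B cell markers summed to 13.4 to 30.1 CPM on ST-HFD and 25.2 to 41.1 CPM on LT-HFD. Adipocyte markers had median sums of 121 CPM in WT and 106 CPM in IRF5-KO on ST-HFD, and 170 and 244 CPM on LT-HFD. Of the 6 of them tested, 1 was called higher and 1 lower averaged over genotypes. The 1 T cell marker tested was called lower in IRF5-KO (-2.06, edgeR) but not averaged over genotypes. Dendritic cell markers moved in the direction of Fcgr2b in IRF5-KO, from 49.3 to 131 CPM on ST-HFD to 17.1 to 67.0 CPM on LT-HFD, and Cd209a, a lectin on that list, fell by 1.52 on the log2 scale there (SE 0.45, adjusted p = 0.0159, edgeR) and was the 1 of 4 tested dendritic cell markers called. The monocyte markers summed to 152 to 239 CPM on ST-HFD and 109.5 to 198 CPM on LT-HFD. Of the 4 of them tested, 3 were higher on LT-HFD averaged over genotypes and 1, the chemokine receptor gene Ccr2, was lower (-0.58, SE 0.14, adjusted p = 0.00269, edgeR). The share of counts on the 3 most abundant features, mitochondrial rRNAs among them, ran from 18.6% to 24.1% in ST-HFD libraries and from 26.1% to 34.5% in LT-HFD libraries. Their part in the changes of the Fc receptors was not tested. In RNA from sorted cells in bulk, fewer cells of a type and less RNA per cell cannot be told apart. When libraries were scaled to 11 macrophage markers, a choice made after seeing the data, the median log2 fold change of all genes in IRF5-KO moved to 0.54, and Fcgr2b was at -0.53 (adjusted p = 0.0306, edgeR), still below 0 and below that median. On that scale Fcgr3 and Fcer1g turned from -0.02 and -0.16 to 0.49 and 0.34 and were called higher (adjusted p = 0.00112 and 0.0148, edgeR), although both lay below that median. Fcgr1 was at 0.94 (adjusted p = 0.000711) and Fcgr4 at 1.23 (adjusted p = 0.00452, edgeR), both called and above the median. On that scale 6479 of the 11560 genes were called in IRF5-KO, in either direction.

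Libraries labelled IRF5-KO were compared with those labelled WT at each diet duration, and 0 of the 5 members passed the threshold at either. On ST-HFD, 0.00913% of 10958 genes had an adjusted p under 0.05, which was Lyz1 alone, and the log2 fold changes of the members were between -0.25 (Fcgr1) and -0.02 (Fcgr2b), with 0 members at an unadjusted p under 0.05, against 1.84% of all genes, and no adjusted p of the 5 under 0.99 (edgeR). DESeq2's Wald test also called 0 of 5 there. With replicate numbers as pairs on ST-HFD, the count over all genes went from 1 to 2 and none of the members passed.

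On LT-HFD, 0.0182% of 10987 genes had an adjusted p under 0.05, and these were Lyz1 and Lyz2. Fcgr2b had a log2 fold change of -0.61 (SE 0.20, 95% interval -1.05 to -0.17) with an adjusted p of 0.853 with edgeR. Its unadjusted p was 0.0108, and 5.72% of all genes had an unadjusted p under 0.05. The lowest WT library, at 166 CPM, lay within the range of the IRF5-KO libraries, so the genotypes overlapped, and 3 of 4 WT libraries were above all IRF5-KO libraries. Fcgr4 had a log2 fold change of 0.52 (SE 0.28) and Fcgr1 of 0.27 (SE 0.16), with adjusted p of 0.853 and 0.873 (edgeR). Single libraries moved these values, with Fcgr4 at 0.29 and Fcgr1 at 0.16 without WT LT-HFD replicate 2 and at 0.35 and 0.12 without IRF5-KO LT-HFD replicate 2. With macrophage marker scaling Fcgr2b, Fcgr4 and Fcgr1 were at -0.36, 0.74 and 0.51, with adjusted p from 0.276 to 0.312 (edgeR). The 12 macrophage markers summed to 12169 to 15197 CPM in WT and 9389 to 10633 CPM in IRF5-KO on LT-HFD, and to 9201 to 11428 CPM and 7689 to 8944 CPM without Lyz2, with 5 of 12 lower at an unadjusted p under 0.05 and Lyz2 alone at an adjusted one. Among other cells, dendritic cell markers summed to 46.7 to 119 CPM in WT and 17.1 to 67.0 CPM in IRF5-KO on LT-HFD, and the part of these markers in the values of the Fc receptors was not tested.

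The interaction of genotype and duration asked whether the genotype difference itself changed. No gene of 11560 had an adjusted p under 0.05, or 0%, by edgeR or by DESeq2, and 454 genes, or 3.93%, had an unadjusted p under 0.05, among them 1 of the 5 members, Fcgr1. The log2 difference for Fcgr1 was 0.52 (SE 0.23, 95% interval 0.04 to 1.001, adjusted p = 0.969, edgeR). For Fcgr2b it was -0.59 (interval -1.27 to 0.09) and for Fcgr4 0.73 (interval -0.15 to 1.61). The change of Fcgr2b or Fcgr1 between durations in IRF5-KO was therefore not shown to differ from that in WT. Averaged over durations, 0.0173% of genes were called between genotypes and 0 of the 5 members, with log2 fold changes from -0.31 (Fcgr2b, SE 0.16) to 0.16 (Fcgr4, SE 0.21).

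Because activating and inhibitory receptors act on the same ligand, their ratio was taken within each library, where the scaling of the library cancels. The summed level per kilobase of Fcgr1, Fcgr3 and Fcgr4 over that of Fcgr2b was 5.91, 4.51, 5.74 and 7.27 in WT and 8.24, 4.13, 5.23 and 5.65 in IRF5-KO on ST-HFD. On LT-HFD it was 8.17, 6.12, 11.8 and 7.77 in WT and 10.5, 13.2, 14.7 and 9.34 in IRF5-KO. The IRF5-KO LT-HFD libraries were above every ST-HFD library of either genotype, and all 4 were above 3 of the 4 WT LT-HFD libraries. The mean was 5.86 ± 1.13 in WT and 5.81 ± 1.74 in IRF5-KO on ST-HFD, and 8.46 ± 2.39 and 11.9 ± 2.46 on LT-HFD (SD, n = 4). On the log2 scale LT-HFD exceeded ST-HFD by 0.51 in WT and 1.06 in IRF5-KO, and IRF5-KO differed from WT by -0.04 on ST-HFD and 0.51 on LT-HFD. Fcgr3, which changed little, made up most of the activating level. The differences between durations thus largely repeat those of Fcgr2b, at -0.45 in WT and -1.04 in IRF5-KO. As a score over genes chosen with results known, the ratio is given without a test. It is a ratio of transcripts, not of receptors at the cell surface.

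**Figure D3:**
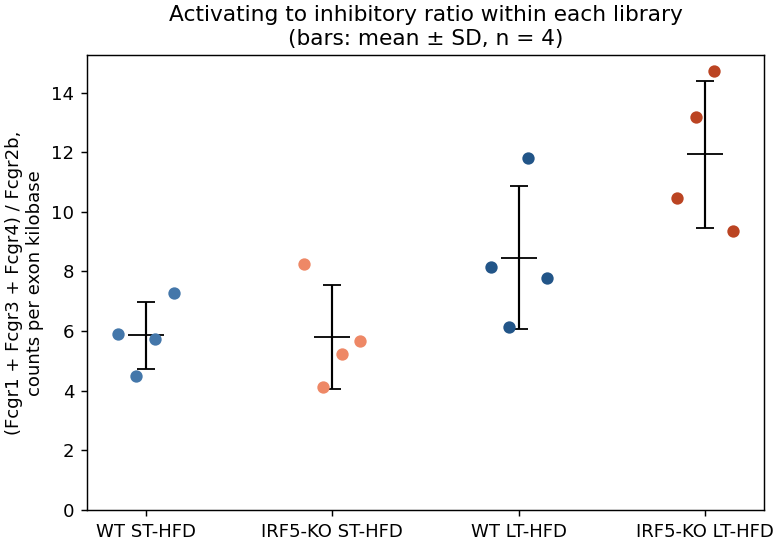
Ratio of the summed counts per exon kilobase of Fcgr1, Fcgr3 and Fcgr4 to those of Fcgr2b (y axis, from 0) in each of the 16 libraries (points) by group (x axis), with the mean ± SD of 4 libraries (black). The IRF5-KO LT-HFD libraries lie between 9.34 and 14.7, above the ST-HFD libraries, which lie between 4.13 and 8.24.

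Across libraries, Fcgr1 and Fcgr4 varied together, with a Pearson r of 0.887 over the 16 libraries and 0.856 after group means were removed. Fcgr2b had an r of -0.532 with Fcgr1 and -0.565 with Fcgr4, which shrank to -0.349 and -0.368 within groups, and Fcgr3 had an r of 0.46 with Fcer1g. These are descriptions of log2 CPM, in which all values of a library share its depth and cell makeup. The same IRF5-KO ST-HFD library, replicate 3, was lowest for Fcgr1 (42.3 CPM) and near the lowest for Fcgr4 (8.78 CPM).

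Of 8089 genes with a mean of at least 10 CPM, those most like Fcgr2b were Mgl2 (r = 0.969), Retnla (r = 0.966) and Gda (r = 0.955), and within groups r was still 0.918, 0.926 and 0.918. Mgl2 encodes a C-type lectin and Retnla a secreted protein, both known as markers of alternatively activated macrophages, and Gda encodes guanine deaminase. Mgl2 averaged 555 ± 275 CPM in WT and 542 ± 230.0 CPM in IRF5-KO on ST-HFD, and 286 ± 104 and 121 ± 46.8 CPM on LT-HFD (SD, n = 4). Its log2 fold change between durations in IRF5-KO was -2.16 (SE 0.39, adjusted p = 0.000472, edgeR). Between genotypes on LT-HFD it was -1.24 (SE 0.29) with an adjusted p of 0.853 by the same edgeR test, as for Fcgr2b.

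**Figure D4:**
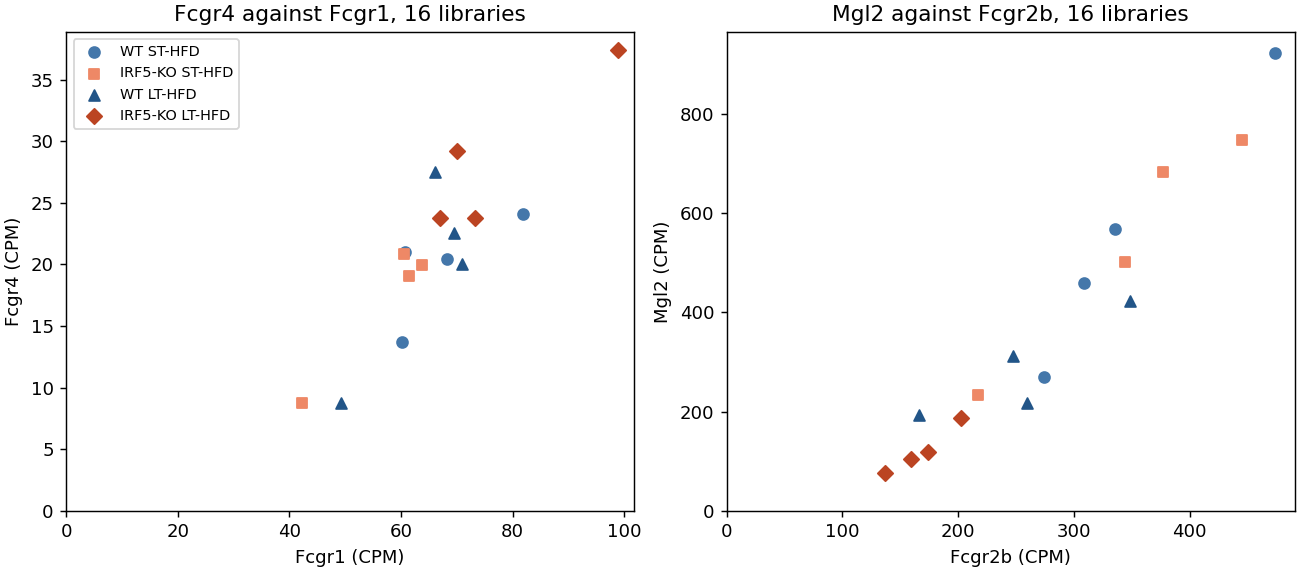
Left, Fcgr4 against Fcgr1, and right, Mgl2 against Fcgr2b, in CPM on both axes from 0, with 1 point per library and colours and shapes for the 4 groups. Both pairs form a rising band over the 16 libraries (r of 0.887 and 0.969 on log2 CPM), and the IRF5-KO LT-HFD libraries (diamonds) sit at the low end of the Mgl2 and Fcgr2b band.

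The genes most like the other members were different ones. For Fcgr1 they were Lgals3bp (r = 0.896), which encodes a secreted glycoprotein that binds galectin-3, Snx10 (r = 0.839) and Ostm1 (r = 0.824). For Fcgr4 they were Ubfd1 (r = 0.830), Axl (r = 0.822), a receptor tyrosine kinase for the uptake of dying cells, and Siae (r = 0.797). For Fcgr3 they were Abcd2 (r = 0.819, and 0.917 within groups), Tmem55b and Prcp, and for Fcer1g they were Ccdc109b (r = 0.807), Sun2 and Trim65.

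The kinases and adaptors that act below the ITAM were mostly lower on LT-HFD with TMM scaling, but not with macrophage marker scaling. Of 27 genes listed, 26 were tested, and averaged over genotypes 19 were lower and 1 higher at an adjusted p under 0.05 with edgeR, against 21.6% lower and 22% higher of all genes. Their median log2 fold change was -0.39, beside 0.04 for all genes and -0.29 for the 12 macrophage markers. With macrophage marker scaling 4 were lower and 5 higher, against 8.17% and 54% of all genes, and the median was -0.00543 beside 0.42 for all genes. The smallest p-values among those lower belonged to Plcg2, a phospholipase (-1.03, SE 0.09), Syk, the kinase that binds the phosphorylated ITAM (-0.92, SE 0.08), and Pik3cd, a phosphoinositide 3-kinase subunit (-0.57, SE 0.08). Src, a kinase that phosphorylates such motifs, was the 1 that rose (1.01, SE 0.25). Plcg2, Syk and Pik3cd were lower on that scale too, at -0.64, -0.54 and -0.19, and Src was higher at 1.41, with adjusted p of at most 0.0327 (edgeR).

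The list of inhibitory genes beside Fcgr2b held phosphatases, other ITIM receptors, the kinase Csk and the adaptors Dok1, Dok2, Dok3 and Pag1. It gave 8 lower and 1 higher of 17 tested, or 47.1% and 5.88% against 21.6% and 22% of all genes, with a median of -0.23. With macrophage marker scaling 1 was lower, Inpp5d (-0.53), and 7 were higher, against 8.17% and 54% of all genes, and the median was 0.15, below the 0.42 of all genes. With TMM scaling Inpp5d, which encodes the phosphatase recruited by Fcgr2b, fell by 0.91 on the log2 scale (SE 0.07, adjusted p = 3.07e-08), and Ptpn6, another such phosphatase, fell by 0.46 (SE 0.09, adjusted p = 0.000636, edgeR). Inppl1, a relative of Inpp5d, fell by 0.36 (SE 0.08) but was at 0.02 with macrophage marker scaling, where Ptpn6 was at -0.07, and Clec12a, an inhibitory lectin receptor, rose by 0.71 (SE 0.15). Within genotypes Inpp5d was at -0.86 in WT (adjusted p = 1.36e-05) and -0.97 in IRF5-KO (adjusted p = 2.65e-06, edgeR), where Fcgr2b was at -0.45 and -1.04 and was called in IRF5-KO only.

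Of 32 genes of the phagocytic cup and its actin, 14 were lower and 6 higher averaged over genotypes, or 43.8% and 18.8% against 21.6% and 22% of all genes, with a median of -0.21. With macrophage marker scaling 3 were lower and 12 higher, against 8.17% and 54% of all genes, and the median was 0.18, below the 0.42 of all genes. With TMM scaling Arpc1b, a subunit of the Arp2/3 complex (-0.89), Wipf1, a partner of the actin nucleation factor WASP (-0.76), and Dock2, an activator of Rac (-0.85), had the smallest p-values among those lower. Cdc42, a small GTPase of the cup (0.52), and Cyba, a subunit of the NADPH oxidase (0.40), were among the genes that were higher. So was Amph, which encodes amphiphysin, but it did not pass the filter on low counts in the ST-HFD libraries alone and entered the test through the libraries where it was high, so its call is no support and no fold is given.

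**Figure D5:**
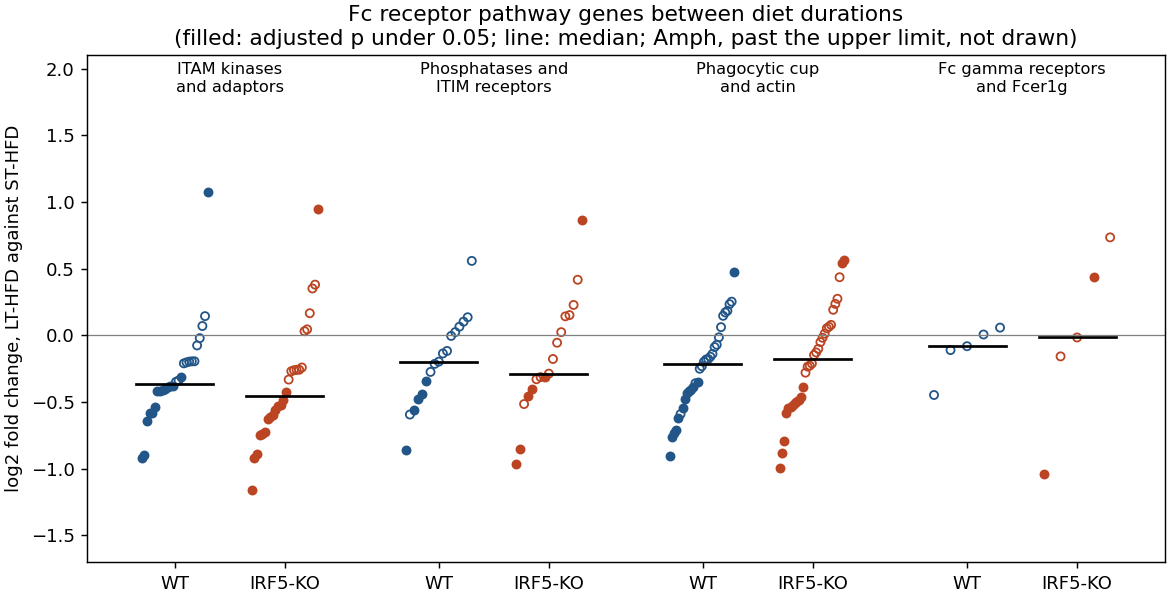
Log2 fold change between LT-HFD and ST-HFD (y axis) for each tested gene (points, TMM scaling) of 3 lists and for the 5 Fc receptor genes, in WT and IRF5-KO (x axis), with adjusted p under 0.05 filled and medians as lines. Amph lies past the upper limit and is not drawn. The ITAM list has medians of -0.37 and -0.46, while the Fc receptor genes have 1 filled point below 0, Fcgr2b in IRF5-KO at -1.04, and 1 above, Fcgr1 at 0.44.

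Other receptors that use the same chain did not pass the threshold with TMM scaling. Of 9 listed, 6 were tested and 0 were called between durations averaged over genotypes (edgeR), with 1 at an unadjusted p under 0.05 and a median of 0.16, against 43.6% of all genes called, whereas 3 were higher with macrophage marker scaling, near the 54% of all genes on that scale. Among partners and other Fc receptors, 4 of 14 were tested, and 1 was called higher, against 22% of all genes. Tyrobp, an ITAM adaptor like Fcer1g, rose by 0.37 (SE 0.10, adjusted p = 0.00677, edgeR). Fcgrt, the neonatal Fc receptor, was at -0.02 (SE 0.14), and at 0.37 with macrophage marker scaling, where all 4 were called higher, against 54% of all genes. Between genotypes, edgeR called 0 genes of these 5 lists at either duration. Without adjustment, 2 of their 84 tested genes (2.38%) had a p under 0.05 at the shorter duration and 3 of 85 (3.53%) at the longer one, against the 1.84% and 5.72% of all genes.

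Macrophage markers themselves were mostly lower on LT-HFD with TMM scaling. Averaged over genotypes, 8 of 12 were lower and 1 was higher, against 21.6% and 22% of all genes. With macrophage marker scaling 2 were lower and 4 higher, against 8.17% and 54%. That scale was set by 11 of these 12 markers, so their balance on it was largely fixed in advance and is no support. Csf1r, the receptor for the macrophage growth factor, fell by 0.75 (SE 0.09) and Cd163, a scavenger receptor, by 1.40 (SE 0.24), while Adgre1, which encodes F4/80 itself, rose by 0.33 (SE 0.10) on the log2 scale.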

How the data were processed

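RNA of F4/80+ ATMs (stranded total RNA, depleted of ribosomal RNA) was sequenced in 16 libraries. Per the labels, reads were trimmed with fastp 0.19.11 and aligned with STAR 2.7.3a, and the authors deposited the reads per gene as raw counts, without normalization. The study's methods name mm10, while the labels list both mm10 and mm9. The annotation release and strand setting of the counting are not given in the sources used here, nor is a sequencing batch. The 3279332 to 4958131 counts per library set the precision of genes with few counts.

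Counts were filtered (filterByExpr), normalized by TMM and tested in R 4.3.3 with edgeR 4.0.16, by the quasi-likelihood test with Benjamini-Hochberg adjustment over all genes tested and calls at an adjusted p under 0.05. Genotypes were compared within each duration over 8 libraries, and durations and the interaction over 16. Levels per kilobase used the exons of each gene in GRCm38, to which 32620 of 37310 identifiers were matched. The test was tried on simulated data with known changes. Libraries of 1 group were compared with each other, and none were duplicates. Alternatives were DESeq2 1.42.0, other scalings and filters, a replicate block, other sets of libraries and leaving out each library.

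The members and gene lists were chosen with earlier results of these data known. All 5 members are named throughout. From each list, up to 3 genes per direction with the smallest p were named among those called, and for each member the 3 genes with the highest r. Csf1r, Cd163, Adgre1, Cd209a and Ccr2, list genes with values under the threshold between genotypes, Inpp5d within genotypes, Fcgrt, Lyz1, Gm38204, Gm26110, Mir6546 and the markers at 0 were named after their values were seen. On ST-HFD the deviations of same-numbered libraries from their group means correlated between genotypes at 0.369, 0.483, 0.179 and 0.298 over 9765 genes. The main genotype tests did not pair these libraries, and only an alternative fit, the replicate block, took the numbers as pairs. Differently numbered libraries correlated at up to 0.467. A further gene list is not reported here.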

Additional observations from a re-analysis of the deposited data

Results flagged for a closer look

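Fcgr1 in the IRF5-KO ST-HFD library of replicate 3 was at 42.3 CPM, and its gap to the next library was 0.851 of the range of the group, above Dixon's critical value for a group of 4. Fcgr4 in the same library was at 8.78 CPM, with a gap of 0.849 of the range. These were 2 of 24 groups of values examined, of which chance would mark about 1 in 20. The log2 fold change between genotypes on ST-HFD without this library went from -0.25 to -0.13 for Fcgr1 and from -0.21 to 0.01 for Fcgr4.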

How the results depend on the processing

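Of 215 values of the members under alternatives other than leaving out a library, 195 kept their direction and their side of the threshold, and of 480 with 1 library left out, 447 did. Fcgr2b stayed called between durations in IRF5-KO and averaged over genotypes under every alternative run. Between genotypes on ST-HFD, the count of genes at an adjusted p under 0.05 was 2 in place of 1 by DESeq2, without the filter, in the fit over 16 libraries and with the replicate block. On LT-HFD it was 6 by DESeq2 and without the filter, 1 with macrophage marker scaling, and 0 to 2 with 1 library left out, being 2 without WT replicate 4, 1 without IRF5-KO replicate 2 and 0 without each of the others. Same-numbered libraries on LT-HFD did not correlate in every pair (-0.151 to 0.233), and there the replicate block gave 0 genes. The block also took Fcgr4 between durations in WT to -0.0412 and Fcgr1 in IRF5-KO to 0.44 with an adjusted p of 0.0556, where the numbers mark no pairs, and it changed no other call of a member. The cause of these changes was not tested.

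Fcgr1 between durations in IRF5-KO was 0.43 by DESeq2 (adjusted p = 0.0541), 0.43 without the filter (adjusted p = 0.0594) and 0.45 in the fit over 8 libraries (adjusted p = 0.0593). Fcgr4 was 0.72 without the filter (adjusted p = 0.0428) and 0.74 over 8 libraries (adjusted p = 0.0462), and in WT it was -0.0145 without the filter. With macrophage marker scaling, chosen after seeing the data, the median of all genes moved to 0.24 between genotypes on LT-HFD, 0.30 between durations in WT, 0.54 in IRF5-KO and 0.42 over both. On that scale Fcgr3 was 0.13, 0.33 (adjusted p = 0.0228), 0.49 and 0.41, Fcer1g was 0.15, 0.17, 0.34 and 0.26, and Fcgr2b was -0.36, -0.17, -0.53 and -0.35. Fcgr1 was 0.20 in WT, 0.94 in IRF5-KO and 0.57 over both, and Fcgr4 was 1.23 in IRF5-KO and 0.77 over both. All members but Fcgr2b were called higher in IRF5-KO and over both (adjusted p at most 0.0148, edgeR). Over both, 54% of all genes were called higher on that scale, and in IRF5-KO 6479 of 11560 genes were called in either direction.

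Leaving out 1 library gave these ranges. Between genotypes on ST-HFD they were -0.35 to 0.0146 for Fcgr4, -0.0792 to 0.00978 for Fcer1g and -0.16 to 0.16 for Fcgr2b, and averaged over durations -0.0604 to 0.0709 for Fcgr1. For the interaction the range was -0.11 to 0.0106 for Fcer1g. Between durations in WT they were -0.14 to 0.0316 for Fcgr1 and -0.19 to 0.24 for Fcgr4, in IRF5-KO 0.30 to 0.50 for Fcgr1, -0.0884 to 0.0590 for Fcgr3 and 0.51 to 0.85 for Fcgr4, and averaged over genotypes -0.0161 to 0.0617 for Fcgr3 and 0.26 to 0.49 for Fcgr4. Fcgr4 had the fewest counts of the members, with 25 to 138 per library.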
